A study of Mus musculus with 8 samples.

Results

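Loss of SRC-2 removes 1 of the closely related steroid receptor coactivators, and the array data were used to ask whether the RNA of any other coregulator differed with it. The genes were named by their role in nuclear receptor transcription and not by any measured value, though earlier results of these data were known. They comprise Ncoa1, Ncoa2 and Ncoa3, which encode SRC-1, SRC-2 and SRC-3, the corepressor genes Nrip1 and Ncor1, the acetyltransferase genes Crebbp and Ep300, the methyltransferase gene Carm1 and the Mediator gene Med1. Of these 9 genes 8 could be read, through 28 of the 45101 probesets of the array, a probeset being a group of short probes read together. Ncor1 was not analysed here, because no probeset was listed for it in the annotation used. RNA came from total hearts of unstressed male mice, fed ad lib and 10 to 12 weeks old, on the C57B/6Jx129Sv background. There were 4 wild type (WT) hearts and 4 SRC-2 knockout (KO) hearts, each from a separate mouse and on an array of its own. The methods describe the mice as age-matched littermates and give a wider age range than the labels, whose ages are used here. The part of Ncoa2 that is disrupted and its position relative to the probesets were not given in the sources used here, and a total heart mixes chambers and cell types.

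Nuclear receptors such as those for steroids, thyroid hormone and fatty acid ligands bind DNA and turn genes on or off through proteins that they recruit. The SRC proteins bind an activated receptor through short leucine-rich motifs and bring in the histone acetyltransferases CBP and EP300, encoded by Crebbp and Ep300, and the arginine methyltransferase CARM1. MED1 links the receptor to the Mediator complex and RNA polymerase II. NRIP1, also called RIP140, uses the same kind of motif to compete for the receptor, and it holds down genes of oxidative metabolism in fat and muscle.

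Each value is a linear signal, deposited with the same trimmed mean on every array, and each gene was read by the probeset with the highest mean log2 signal over the 8 arrays. KO was compared with WT with limma over 18193 genes, and a gene was said to pass at an adjusted p under 0.05. limma steadies the variance of each gene with a prior: 1 constant shared by the whole array (constant-prior fit), or a value that follows the mean signal (trended-prior fit). A signal under 50, which held for 36.9% to 40.7% of the probesets of an array, was treated as near background. Markers of ventricular myocytes were bright, with a signal summed over 9 of 9 genes between 462300 and 617800 in WT and between 552200 and 706700 in KO hearts. All 8 atrial myocyte markers, 10 of 10 fibroblast markers and 10 of 10 macrophage and leukocyte markers were lower in mean log2 signal in the KO group, their medians of the log2 fold change being -1.64, -0.63 and -0.31. Of these 3 lists the mean log2 signal per heart separated the genotypes only for the macrophage and leukocyte markers. The part of these cell types in the results was not tested, and in bulk RNA fewer cells of a type and less RNA per cell cannot be told apart.

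Ncoa2 fell in the SRC-2 KO hearts, with a fold change of KO over WT of 0.130 (95% interval 0.108 to 0.156 in the trended-prior fit). Its brightest probeset, 1435233_at, had signals of 1660, 2115, 1827 and 2134 in WT hearts and of 237, 260, 267 and 235 in KO hearts. The WT and KO hearts lay far apart, and the KO hearts were closer to each other than the WT hearts were (1934 ± 230.5 and 249.8 ± 16.2, SD, n = 4). The log2 fold change was -2.95 (standard error, SE, of 0.12, adjusted p = 0.00058 in the constant-prior fit and 9.24e-08 in the trended-prior fit). Of the 8 members, 1 passed as lower and 0 passed as higher. Among all genes, 0.0165% passed as lower and 0.00550% as higher in the constant-prior fit, and 0.253% and 0.121% in the trended-prior fit. When all 45037 probesets were fitted instead of genes it passed as well, with an adjusted p of 0.00236 and 3.84e-08 from limma.

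The 3 dimmer probesets of Ncoa2 did not all follow the brightest. Probeset 1435234_at, designed from the same sequence record as the brightest, had signals of 178, 182, 194 and 202 in WT hearts and of 78.7, 26.4, 8.98 and 45.8 in KO hearts. All KO hearts lay below all WT hearts, as they did for 2.97% of all probesets, with a log2 fold change of -2.63 (SE 0.57, adjusted p = 0.511 in the constant-prior and 0.0906 in the trended-prior fit over probesets). The signals of 1450458_at were 61.6, 62.6, 21.2 and 54.1 in WT hearts and 84.0, 46.6, 95.9 and 76.6 in KO hearts, and the groups overlapped. With values this close to background, the log2 fold change of 0.67 did not pass, and its 95% interval ran from -0.43 to 1.78. The last probeset, 1446827_at, ranged from 7.04 to 107 with overlapping groups and a log2 fold change of -0.28 (95% interval -2.23 to 1.66).

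**Figure D1:**
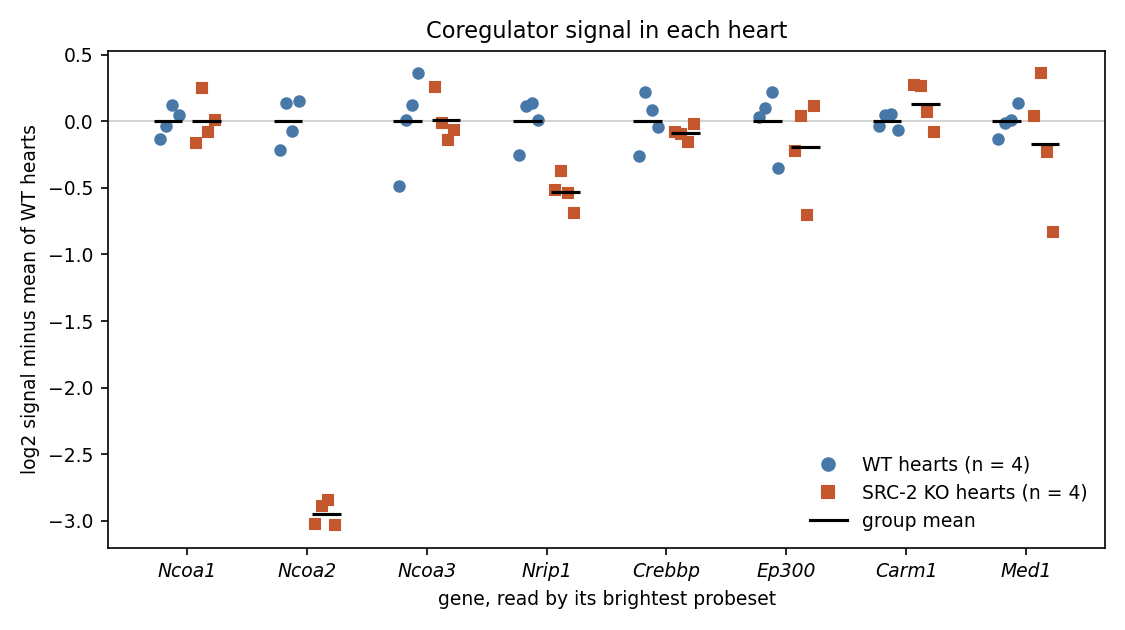
log2 signal of each heart relative to the WT mean (vertical axis, log2 units) for the 8 genes read, each by its brightest probeset. Circles are WT hearts (n = 4), squares are SRC-2 KO hearts (n = 4) and lines are group means. Ncoa2 lies at -2.95 in KO hearts, Nrip1 at -0.53 with no overlap between the genotypes, and the other 6 genes overlap.

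No difference was detected for the SRC family members that remain. Ncoa1, which encodes SRC-1, had signals of 1403, 1498, 1670 and 1588 in WT hearts and of 1369, 1824, 1455 and 1547 in KO hearts for its brightest probeset, 1434515_at. The KO hearts held both the lowest and the highest of these values. The fold change of KO over WT was 1.002, with a 95% interval of 0.85 to 1.18 in the trended-prior fit and of 0.82 to 1.23 in the constant-prior fit (adjusted p = 0.995 in both). Its second probeset, 1418594_a_at, had signals of 784, 1139, 1089 and 1057 in WT hearts and of 792, 1032, 957 and 917 in KO hearts, and its log2 fold change was -0.13 (95% interval -0.42 to 0.16). These hearts overlapped too, and the third probeset, 1443397_at, lay near background at 2.13 to 66.9.

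Ncoa3 encodes SRC-3, also known as AIB1, and its brightest probeset was 1448027_at. The signals were 456, 643, 694 and 819 in WT hearts and 764, 632, 579 and 609 in KO hearts. All KO hearts lay within the range of the WT hearts, since WT replicate 1 was the lowest and WT replicate 4 the highest of the 8. The fold change was 1.01, with a 95% interval of 0.78 to 1.30 in the trended-prior fit and of 0.73 to 1.39 in the constant-prior fit (adjusted p = 0.991 and 0.993). The second probeset, 1422737_at, had signals between 176 and 241 in WT and between 155 and 281 in KO hearts, and its log2 fold change was 0.058 (95% interval -0.43 to 0.55). The upper limits bound a rise of the brightest probesets to 1.23-fold for Ncoa1 and 1.39-fold for Ncoa3 in the main, constant-prior fit. In the trended-prior fit they were 1.18-fold and 1.30-fold, each interval taken on its own. For the second Ncoa3 probeset the upper limit was 1.46-fold in the trended-prior fit over probesets. The sign of the near-zero log2 fold changes of the brightest probesets turned when single hearts were left out. This held for Ncoa1 without WT replicate 1, WT replicate 2 or KO replicate 2 and for Ncoa3 without WT replicate 1 or KO replicate 1.

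After Ncoa2, Nrip1 showed the largest difference among the members, toward lower values in KO hearts, and it did not pass in either fit. The signals of its brightest probeset, 1434384_at, were 1553, 2001, 2036 and 1861 in WT hearts and 1295, 1431, 1278 and 1148 in KO hearts. Every KO heart lay below every WT heart, which held for 3.72% of all genes (two-sided p = 0.0286 by exact permutation, the lowest value reachable with 4 hearts against 4). The fold change was 0.69, with a 95% interval of 0.59 to 0.82 in the trended-prior fit and of 0.56 to 0.86 in the constant-prior fit. On the log2 scale it was -0.53 (SE 0.11, adjusted p = 0.0684 in the trended-prior fit, and SE 0.13, adjusted p = 0.342 in the constant-prior fit). By its p-value Nrip1 stood at rank 90 of the 18193 genes in the trended-prior fit.

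All 6 probesets of Nrip1 had lower mean log2 signals in KO hearts. Probeset 1449089_at had signals of 465, 934, 927 and 863 in WT hearts and of 438, 572, 424 and 366 in KO hearts. WT replicate 1 lay among the KO hearts and the other WT hearts lay above all of them, and the log2 fold change was -0.79 (SE 0.21, adjusted p = 0.179 in the trended-prior fit over probesets). Leaving out WT replicate 1, which was decided on with the values in view, gave -1.03 (adjusted p = 0.0438 in the trended-prior and 0.417 in the constant-prior fit). This was the lowest WT heart, so the larger difference follows from leaving it out and adds no support. Probeset 1418469_at, designed from the same sequence record, had signals of 572, 614, 748 and 505 in WT hearts and of 365, 586, 277 and 370 in KO hearts. Here KO replicate 2 lay within the WT range, and the log2 fold change was -0.65 (SE 0.21, adjusted p = 0.267 in the trended-prior fit). The remaining 3 probesets, with signals of 9.95 to 175, had log2 fold changes of -0.28, -0.29 and -0.55 with overlapping groups.

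**Figure D2:**
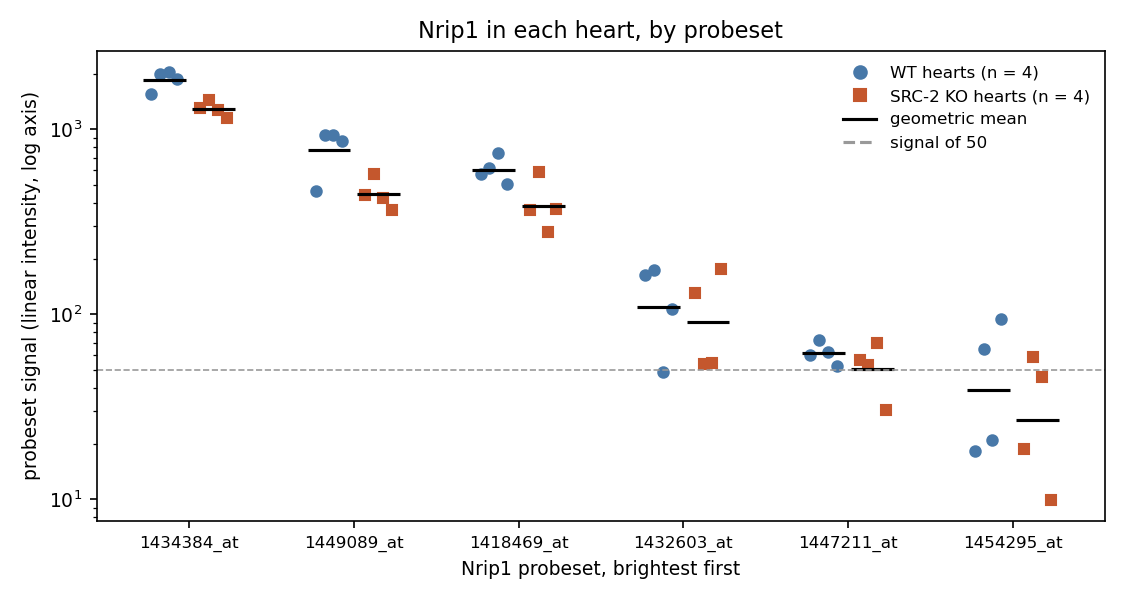
Signal of each heart (vertical axis, linear intensity on a log axis) for the 6 probesets of Nrip1, brightest on the left. Circles are WT hearts (n = 4), squares are SRC-2 KO hearts (n = 4), lines are geometric means and the dashed line is a signal of 50. The KO mean is the lower one for every probeset, and the genotypes do not overlap for 1434384_at.

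Marker lists of cell types were read in the same hearts. Of the fibroblast, endothelial, adipocyte, and macrophage and leukocyte markers, 0 passed in the trended-prior fit. In other lists read, 2 atrial myocyte markers passed as lower in KO hearts, Nr2f2 and Tbx5 (limma, adjusted p = 0.0368 for each). The smooth muscle and pericyte marker Acta2 passed as higher (adjusted p = 0.0423) and the skeletal muscle marker Tnni2 as lower (adjusted p = 0.0368). Acta2 went against the rest of its list, in which 1 of 8 genes was higher and 7 were lower. Of the 7 skeletal muscle markers 2 had higher and 5 had lower values. Among all genes 0.121% passed as higher and 0.253% as lower in this fit. Fibroblast markers were lower in KO hearts for 10 of 10 genes. Their mean log2 signal per heart ran from 12.6 to 13.4 in WT and from 12.0 to 12.8 in KO hearts. Endothelial markers were lower in KO hearts for 9 of 10 genes, at a mean log2 signal per heart between 10.7 and 11.1 in WT and between 10.4 and 10.8 in KO hearts. Adipocyte markers had higher values for 5 of 5 genes measured, and their mean ran from 5.62 to 6.14 in WT and from 5.96 to 7.77 in KO hearts, where KO replicate 4 was the highest and the others reached 6.60. Of these genes only Adipoq was above 50 in every heart, while Lep, Retn, Cidec and Ucp1 had signals under 50 in some. The means per heart of the fibroblast, endothelial and adipocyte lists overlapped between the genotypes. The macrophage and leukocyte markers ran from 10.1 to 10.5 in WT and from 9.94 to 10.1 in KO hearts, summed signals of 16080 to 21230 and 13250 to 15410, with no marker of this list under 50 in every heart. The part of these cell types in the Nrip1 difference was not tested.

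The acetyltransferase genes did not pass, and each of their probesets had a lower mean in KO hearts. Crebbp, which encodes CBP, had signals of 1255, 1757, 1598 and 1465 in WT hearts and of 1422, 1410, 1350 and 1487 in KO hearts for its brightest probeset, 1435224_at. The KO hearts were tightly grouped inside the WT range, with a fold change of 0.94 (95% interval 0.80 to 1.10, adjusted p = 0.785 in the trended-prior and 0.831 in the constant-prior fit). Its next probeset, 1436983_at, had signals of 837, 1291, 1294 and 1069 in WT hearts and of 699, 936, 825 and 1013 in KO hearts. The groups overlapped, with a log2 fold change of -0.36 (95% interval -0.70 to -0.029, adjusted p = 0.454 in the trended-prior fit over probesets). In 1434633_at the WT hearts had signals of 470 to 589 and the KO hearts of 427 to 486, a log2 fold change of -0.28 (95% interval -0.56 to 0.0080). The dimmest, 1459804_at, had a log2 fold change of -0.60 (95% interval -1.80 to 0.60).

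Ep300 encodes EP300, the close relative of CBP, and was read by a single probeset, 1434765_at. The signals were 1945, 2032, 2218 and 1490 in WT hearts and 1625, 1954, 1165 and 2054 in KO hearts. KO replicate 3 was the lowest of all hearts and KO replicate 4 the second highest, and the groups overlapped. The fold change was 0.87, with a 95% interval of 0.68 to 1.13 in the trended-prior fit (adjusted p = 0.690, and 0.777 in the constant-prior fit).

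Carm1, which encodes the arginine methyltransferase that joins the SRC proteins, had the largest positive difference among the brightest probesets of the members and did not pass. Its signals were 1184, 1254, 1261 and 1158 in WT hearts and 1464, 1460, 1273 and 1149 in KO hearts. KO replicates 1, 2 and 3 lay above every WT heart and KO replicate 4 below all of them. The fold change was 1.10, with a 95% interval of 0.94 to 1.28 in the trended-prior fit (adjusted p = 0.643, and 0.722 in the constant-prior fit). Its probeset, 1419743_s_at, is the only one listed for the gene and carries the mark of the array design for probes that can match several transcripts.

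Med1, the Mediator subunit that nuclear receptors contact, gave different directions in its probesets. The brightest, 1421907_at, had signals of 1878, 2038, 2067 and 2256 in WT hearts and of 2107, 2637, 1750 and 1153 in KO hearts. KO replicate 2 was the highest and KO replicate 4 the lowest of all hearts, and the log2 fold change was -0.17 (95% interval -0.59 to 0.25, adjusted p = 0.772 in the trended-prior and 0.835 in the constant-prior fit). Without KO replicate 4 it was 0.054. The second, 1448708_at, had signals of 1009, 990, 1252 and 1198 in WT hearts and of 1229, 1411, 1430 and 1295 in KO hearts. Here the KO hearts lay toward the upper end and overlapped the WT range with 1 heart, and the log2 fold change was 0.27 (95% interval 0.036 to 0.51, adjusted p = 0.420 in the trended-prior fit over probesets).

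Within each heart, the log2 signal of the brightest Med1 probeset minus that of the second was 0.89 on average in WT hearts and 0.45 in KO hearts, a comparison decided on with the values in view. The change of -0.44 did not pass (exact permutation test, two-sided, p = 0.171), and without KO replicate 4 it was -0.24. The third probeset, 1421906_at, shares its sequence record with the brightest and had signals of 240, 345, 336 and 291 in WT hearts and of 188, 306, 217 and 27.6 in KO hearts. KO replicate 4 was the lowest heart here as well, and the log2 fold change was -1.14 (95% interval -2.31 to 0.038). The other 4 probesets of Med1, with signals of 11.03 to 196, had log2 fold changes from -0.40 to 1.03, with overlapping groups.

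**Figure D3:**
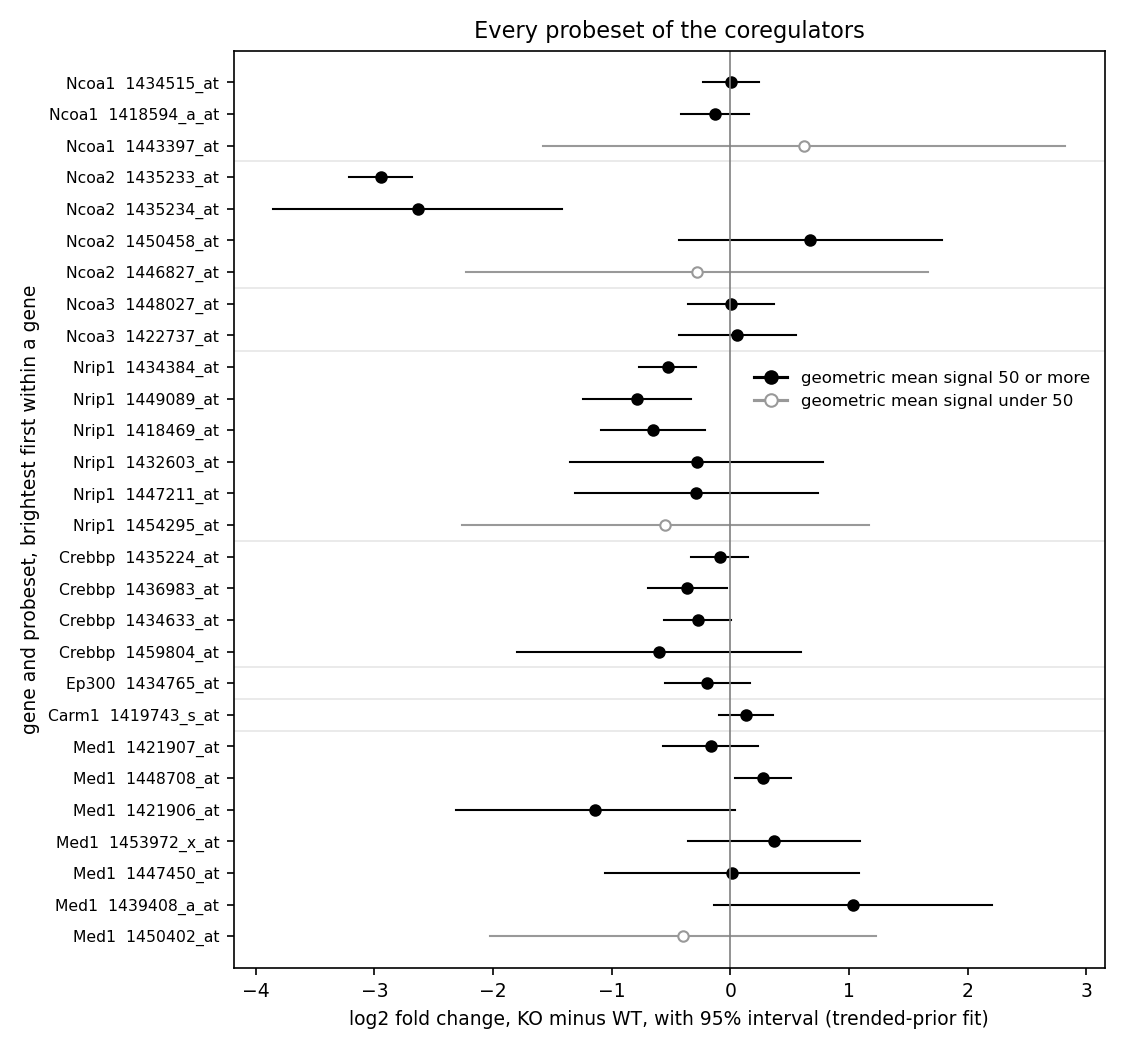
log2 fold change of KO over WT with its 95% interval in the trended-prior fit (horizontal axis) for the 28 probesets of the 8 genes, the brightest first within a gene. Filled symbols have a geometric mean signal of 50 or more over the 8 hearts and open grey symbols one under 50. Both brighter Ncoa2 probesets lie below -2.6, all Nrip1 and Crebbp probesets lie below 0, and those of Med1 lie on both sides.

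Taken over the 7 genes other than Ncoa2, 0 passed in limma's constant-prior or trended-prior fit. The random variance model test named in the methods, run here on the deposited values, also gave 0. Over all 18193 genes that test and the constant-prior fit each called 1 as higher and 3 as lower, and the trended-prior fit 22 and 46. With so few calls, 0 of 7 says little about these genes. At an unadjusted p under 0.05, 0 of the 7 were higher and 1, Nrip1, was lower in both fits, where 5.33% of all genes were higher and 7.22% lower in the trended-prior fit and 3.94% and 6.09% in the constant-prior fit. The KO mean was the higher one for 3 of these genes and the lower one for 4, and the median of their log2 fold changes was -0.089 beside -0.027 over all genes. For 1 of the 7, Nrip1, the genotypes did not overlap, as for 6.83% of all genes and 9.63% of the genes above the median signal. For 0 of the 7 were all KO hearts above all WT hearts, as for 3.11% of all genes. In their 24 probesets the KO mean was above the WT mean 9 times and below it 15 times, and 0 passed when all probesets were fitted. Among all probesets 0.00444% passed as higher and 0.00666% as lower in the constant-prior fit, and 0.0622% and 0.111% in the trended-prior fit. In 0 of the 24 did the KO hearts all lie above the WT hearts, which 2.41% of all probesets did.

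The comparison was extended to 114 entries of other coregulators in 7 lists, of which 113 genes were measured. Sap18 was not analysed here, because its probesets are listed with several genes. No gene of these lists passed in limma's constant-prior or trended-prior fit or in the random variance model test. Among all genes 0.121% passed as higher and 0.253% as lower in the trended-prior fit, and 0.00550% and 0.0165% in the constant-prior fit. With so few calls, 0 of 113 says little about these genes. At an unadjusted p under 0.05 in the trended-prior fit 5 genes were higher and 5 were lower, where 5.33% and 7.22% of all genes were. In the constant-prior fit 4 were higher and 4 were lower, where 3.94% and 6.09% of all genes were. The median log2 fold change was -0.041, with 50 genes higher and 63 lower. The genotypes did not overlap for 7.08% of the genes, beside 6.83% of all genes and 9.63% of the genes above the median signal.

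Partners of the corepressors had small differences. Of 5 measured genes of the NCoR corepressor complex 3 had higher and 2 had lower values, the median of their log2 fold changes being 0.096. Hdac3, the deacetylase of this complex, had signals of 1409 ± 58.7 in WT and 1512 ± 164 in KO hearts (SD, n = 4), and a log2 fold change of 0.096 (adjusted p = 0.735 in the trended-prior fit). Coro2a had a log2 fold change of 1.68 near background, with signals of 21.0 ± 20.5 and 48.4 ± 29.5 (SD, n = 4, adjusted p = 0.518). Tbl1xr1 and Gps2, other subunits of the complex, had log2 fold changes of -0.12 and -0.073. Among the 17 measured genes of SIN3, the deacetylases and further corepressors, 8 had higher and 9 had lower values (median -0.040). The scaffold gene Sin3b had a log2 fold change of -0.26 and Nr0b2, which encodes the receptor SHP, one of -0.31 (adjusted p = 0.390 and 0.475 in the trended-prior fit). The corepressor genes Ctbp1 and Ctbp2 had 0.18 and 0.14 (adjusted p = 0.579 and 0.560).

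Enzymes that act like CBP, EP300 and CARM1 showed no call either. Of 7 lysine acetyltransferase genes 2 had higher and 5 had lower values (median -0.035). Kat2b, which encodes PCAF, had signals of 7520 ± 410.5 and 7633 ± 311 (SD, n = 4), a log2 fold change of 0.022. Kat2a, the close relative of Kat2b, had a log2 fold change of -0.22, Kat8 one of -0.17 and Kat7 one of 0.030. Of 7 arginine methyltransferase genes 2 had higher and 5 had lower values (median -0.16). Prmt2 had signals of 1281, 967, 1101 and 957 in WT hearts and of 739, 855, 670 and 893 in KO hearts. Its KO hearts lay below its WT hearts, with a log2 fold change of -0.45 (SE 0.13, adjusted p = 0.171 in the trended-prior and 0.428 in the constant-prior fit). Prmt3, Prmt7 and Prmt5 had log2 fold changes of -0.21, 0.21 and 0.098.

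Mediator subunits lay on both sides, with 17 of 32 genes higher and 15 lower and a median log2 fold change of 0.0099. Med20 had signals of 785, 738, 755 and 811 in WT hearts and of 882, 1203, 1059 and 830 in KO hearts, without overlap and with a log2 fold change of 0.35 (SE 0.13, adjusted p = 0.264 in the trended-prior fit). Med24 had one of 0.34, Med18 one of -0.49 and Med9 one of -0.18 (adjusted p = 0.406, 0.513 and 0.539). In the SWI/SNF complex, which moves nucleosomes, 5 of 13 genes had higher and 8 had lower values (median -0.056). Its subunit gene Smarcd2 had signals of 1173, 1275, 1093 and 1220 in WT hearts and of 829, 830, 794 and 1077 in KO hearts. All KO hearts were lower, and the log2 fold change was -0.44 (SE 0.12, adjusted p = 0.133 in the trended-prior and 0.399 in the constant-prior fit). Without KO replicate 4 it was -0.54 and passed in the trended-prior fit (adjusted p = 0.0242). That fit called 104 of the 18193 genes as higher and 216 as lower, beside 22 and 46 with all hearts. Smarce1 had a log2 fold change of -0.27, Smarcd3 one of 0.12 and Arid1b one of 0.065.

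Among 32 other nuclear receptor coactivators 13 had higher and 19 had lower values, and the median of the log2 fold changes was -0.066. Fhl2, a LIM protein of heart muscle that coactivates the androgen receptor, had signals of 51320, 42500, 44850 and 45480 in WT hearts and of 62590, 63730, 68600 and 55710 in KO hearts. All KO hearts were above all WT hearts, and the log2 fold change of 0.44 had the smallest adjusted p of the 113 genes (SE 0.12, adjusted p = 0.130 in the trended-prior and 0.361 in the constant-prior fit). Psmc5, a proteasome subunit gene whose product also binds nuclear receptors, had signals of 3450 ± 229 and 4211 ± 141 (SD, n = 4), a log2 fold change of 0.29 (adjusted p = 0.149 in the trended-prior fit). The log2 fold changes were -0.27 for Nsd1, a histone methyltransferase gene, and -0.22 for Ddx5, an RNA helicase gene (adjusted p = 0.330 and 0.440 from limma's trended-prior fit).

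**Figure D4:**
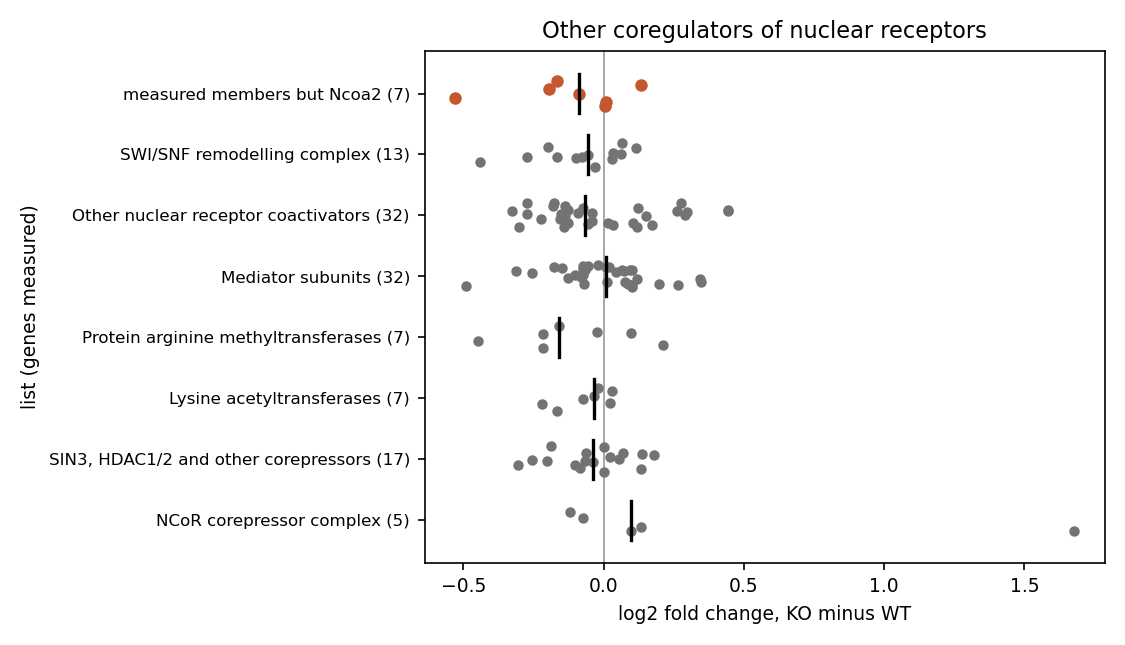
log2 fold change of KO over WT (horizontal axis) for 113 genes in 7 lists of other coregulators and, in the top row, for the 7 measured members other than Ncoa2. Points are genes read by their brightest probeset, spread vertically only for legibility, and vertical lines are list medians, which lie between -0.16 and 0.096. The point at 1.68 is Coro2a, whose signal is near background.

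Genes were also ranked by how closely their values over the 8 hearts followed those of Ncoa2, as the root mean square difference of log2 signal minus the WT mean, among the 9096 genes above the median signal. The profile of Ncoa2 itself had a root mean square of 2.09 on this scale. Nearest was Fabp1, a fatty acid binding protein gene, at 0.68, with signals between 655 and 2610 in WT and between 87.8 and 263 in KO hearts. It was followed by Angptl4, an inhibitor of lipoprotein lipase, at 0.77, Tnni2, the troponin I gene of fast skeletal muscle, at 0.87, Gucy1a1, a soluble guanylyl cyclase subunit gene, at 0.89, and Fgf12 at 0.90. All 5 had WT hearts above KO hearts, as the measure favours, and their spread within a genotype was wider than that of Ncoa2, for which the KO hearts ranged only from 235 to 267.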

How the data were processed

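RNA from 4 WT and 4 SRC-2 KO hearts was labelled and hybridised to Affymetrix mouse expression arrays. Tools listed in the notes of the submitters on processing are RMA, Partek and the Affymetrix Expression Console. The deposited values are linear intensities from 0.219 to 124739, with a trimmed mean of 500 on each array (2% left out at each end). The methods name RMA, whose values are log2, but the deposited ones are not on that scale. Their medians also differed between arrays, from 75.6 to 87.3, so they may not be the values that the methods tested. Here log2 was taken without further normalization, and a test designed for log2 values was kept. Precision is limited by how few arrays there are.

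Of 45101 probesets, 64 are controls, 9211 were not listed in the annotation used and 932 had several symbols. Symbols were updated through RefSeq genes (GRCm38.p6). KO and WT were compared in R 4.3.3 with limma 3.58.1 (lmFit, eBayes, Benjamini-Hochberg over all genes or all probesets), tested on simulated data first. Single values were tested by exact permutation over 70 splits of the arrays. Intervals are 95% intervals of the fits, each taken alone. The members and lists were chosen with earlier results of these data known, so no p was adjusted over a list alone. The genes named were the members, up to 2 genes per wider list and direction with the smallest p in the trended-prior fit, any that passed, and the 5 most like Ncoa2. An item of the wider lists is not reported here. Alternatives were the trended-prior fit (the constant-prior fit is the main one), the random variance model, a replicate block, other normalizations, a floor, a filter on dim genes, other choices of probeset and leaving out each array. The sample titles do not say whether equal replicate numbers mark paired arrays, and each heart was taken as a replicate. The plots were made with matplotlib 3.10.9 (Python 3.11.15).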

Additional observations from a re-analysis of the deposited data

Results flagged for a closer look

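In 56 groups of 4 hearts, the WT and the KO hearts of each of the 28 probesets, 2 held a heart set far from the rest, where chance gives about 1 group in 20. For the Nrip1 probeset 1449089_at, WT replicate 1 had a signal of 465 and the other WT hearts had 863 to 934. For the Ncoa2 probeset 1450458_at, WT replicate 3 had a signal of 21.2 and the others had 54.1 to 62.6, all close to background.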

How the results depend on the processing

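Ncoa2 kept its direction in all settings and passed in 8 of 10 alternatives and without each heart in turn, with log2 fold changes of -3.02 to -2.90 in those fits (largest adjusted p = 0.00838). With the replicate number as a block its log2 fold change was -2.95 and did not pass (adjusted p = 0.254), and as the mean of all its probesets, near-background ones included, it was -1.30 (adjusted p = 0.478). In both of these settings 0 members passed as lower in KO hearts. The block leaves fewer degrees of freedom, and same-numbered hearts deviated together with correlations of -0.080 to 0.11, with 1 of 4 correlating best with its own number. So few correlations cannot settle whether the hearts were paired. In the fits over genes no other member passed in any setting, and 0 passed as higher throughout. In the fits over probesets, 1449089_at of Nrip1 passed in the trended-prior fit without WT replicate 1 (-1.03, adjusted p = 0.0438), a setting added with the values in view. That heart was the lowest WT heart for this probeset, so the pass adds no support. Without single hearts, in both fits, the log2 fold change of Ncoa1 ran from -0.079 (without KO replicate 2) to 0.060, with -0.041 and -0.0093 without WT replicates 1 and 2. That of Ncoa3 ran from -0.15 (without WT replicate 1) to 0.13, with -0.075 without KO replicate 1, and that of Med1 from -0.34 to 0.054 (without KO replicate 4). Nrip1 from -0.61 to -0.47, Crebbp from -0.18 to -0.016, Ep300 from -0.31 to -0.025 and Carm1 from 0.086 to 0.20 kept their sign. Nrip1 came nearest to the threshold without 1 heart in the trended-prior fit (adjusted p = 0.0531 to 0.184). In the other alternatives Nrip1 ran from -0.53 to -0.47 and Crebbp from -0.33 to -0.027. Ncoa1 ran from 0.0029 to 0.16 (as the mean of all its probesets), Ncoa3 from 0.0080 to 0.070 and Carm1 from 0.13 to 0.19. Ep300 ran from -0.20 to -0.13 and Med1 from -0.17 to -0.0024. Without KO replicate 4 the trended-prior fit called 1 gene of the SWI/SNF list, which ran from 0 to 1 over the fits without a heart, and all other lists stayed at 0. Over all genes, 22 passed as higher and 46 as lower in the trended-prior fit, beside 1 and 3 in the constant-prior fit, and the trended-prior fit without KO replicate 4 called 104 and 216. Probesets under a signal of 50 have intervals too wide to show a change of the size seen for Nrip1.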
